A study of Mus musculus with 12 samples.

Results

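Mitochondrial ribosomal protein genes were followed in mouse splenic B cells over the first hours of B cell receptor engagement. The set was taken as all protein-coding genes of the GENCODE vM21 annotation whose symbol is Mrpl or Mrps followed by a digit, and held 78 of the 55487 genes in the table. By the structure of the ribosome, 51 of the 78 encode large-subunit proteins and 26 encode small-subunit proteins. Mrps30 and Mrps18a are named for the small subunit but sit in the large one, and were counted there. Mrps36 carries the name of the family but is known as a subunit of the 2-oxoglutarate dehydrogenase complex, and was counted apart. The rule used names alone and no measured value, but the family was chosen with earlier results of these data known.

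The cells were naive B cells by their label, purified from spleen. The mice were wild type (WT) or Fcmr KO, without the Fc receptor for IgM. All 12 cultures received F(ab')2 anti-IgM, a bivalent antibody piece that binds and clusters surface IgM, at 10 µg/mL. Cells were harvested at 1 h or 6 h, giving 4 groups of 3 libraries: WT at 1 h, KO at 1 h, WT at 6 h and KO at 6 h. The labels call the libraries biological replicates and do not name the animals, so each p-value measures the spread between these libraries. Unstimulated cells were not analysed here, and every value belongs to stimulated cells.

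By way of background, mitochondria carry their own ribosome, which makes the few proteins encoded by mitochondrial DNA, all of them subunits of the respiratory chain and the ATP synthase. Its RNA comes from mitochondrial DNA, whereas all of its proteins are encoded in the nucleus, made in the cytosol and imported. The large subunit forms peptide bonds and holds the exit tunnel at the inner membrane, and the small subunit reads the mRNA. Many of the proteins descend from bacterial ribosomal proteins (47 of the 78 genes), and others are found only in mitochondria (30 genes). Lymphocytes that leave the resting state are known to build up mitochondrial mass.

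By totals inferred from the FPKM values, each library held 19260751 to 24058818 fragments. A tested member had 33 fragments (Mrps6) to 3427 fragments (Mrpl24) in a library. With these totals, 3 fragments over 1 kb of transcript equal 0.125 to 0.156 FPKM (fragments scaled by transcript length and library size), a floor that covers counting error only. Fcmr, the targeted gene, was at 352 to 388 FPKM in WT and 48.9 to 50.1 FPKM in KO at 1 h, and at 368 to 401 FPKM and 42.6 to 46.4 FPKM at 6 h. All 12 B cell markers examined were above 1 FPKM on average, and their summed level was 6810 to 10700 FPKM at 1 h and 3670 to 6610 FPKM at 6 h. The 10 macrophage markers summed to 208 to 448 FPKM at 1 h and 70.9 to 178 FPKM at 6 h, and the 11 T cell markers to 59.6 to 76.3 FPKM over all libraries. The 10 neutrophil markers summed to 847, 431 and 56.3 FPKM in WT at 1 h and to 382, 275 and 16.3 FPKM in WT at 6 h, against 15.6 to 70.3 FPKM over the KO libraries. The 10 erythroid markers summed to 510 to 2050 FPKM at 1 h and 307 to 725 FPKM at 6 h. The 8 plasma cell markers summed to 1230 to 1930 FPKM at 1 h and 711 to 1150 FPKM at 6 h. No marker of these lists was at 0 in all libraries.

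Promoter sequences are shown for 6 members that carry the main findings: Mrpl12, Mrps27, Mrpl36 and Mrpl49, which rose strongly over time, Mrps18b, which shares its start region with a gene that fell, and Mrpl33, which did not rise. The windows come from RefSeq on build GRCm38.p6 and run from 250 bases before to 50 bases after the RefSeq start, 5′ to 3′ on the strand of the gene. They lie at chr11:120484387-120484686 on the plus strand for Mrpl12, chr13:99344536-99344835 on the plus strand for Mrps27, chr13:73330759-73331058 on the plus strand for Mrpl36 and chr19:6057706-6058005 on the minus strand for Mrpl49. The windows of Mrps18b and Mrpl33 lie at chr17:35916391-35916690 on the minus strand and chr5:31613701-31614000 on the plus strand. Capitals mark matches, on either strand, to 6 short motifs: CACGTG (E-box), CGCATGCG (the letters of the NRF1 motif), CCGGAAG (ETS or GABP), GGGCGG (the GC box of SP1), AAGATGG (YY1) and CCAAT (the CCAAT box).
Mrpl12: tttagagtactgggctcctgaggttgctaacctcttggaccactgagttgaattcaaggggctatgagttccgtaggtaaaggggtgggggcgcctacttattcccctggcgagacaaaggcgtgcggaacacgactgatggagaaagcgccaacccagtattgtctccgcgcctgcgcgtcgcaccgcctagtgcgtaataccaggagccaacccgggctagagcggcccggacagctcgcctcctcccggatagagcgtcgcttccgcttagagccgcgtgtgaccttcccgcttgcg
Mrps27: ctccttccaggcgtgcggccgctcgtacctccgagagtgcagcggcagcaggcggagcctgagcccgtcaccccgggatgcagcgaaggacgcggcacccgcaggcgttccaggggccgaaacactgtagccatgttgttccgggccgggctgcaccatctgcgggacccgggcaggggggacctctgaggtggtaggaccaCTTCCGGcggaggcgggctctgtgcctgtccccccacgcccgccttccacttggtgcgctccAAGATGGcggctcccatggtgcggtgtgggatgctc
Mrpl36: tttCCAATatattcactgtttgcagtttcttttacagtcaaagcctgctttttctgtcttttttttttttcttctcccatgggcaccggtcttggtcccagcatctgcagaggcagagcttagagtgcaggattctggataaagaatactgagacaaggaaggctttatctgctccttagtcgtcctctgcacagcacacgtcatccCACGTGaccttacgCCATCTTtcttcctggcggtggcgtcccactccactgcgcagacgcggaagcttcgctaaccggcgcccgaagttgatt
Mrpl49: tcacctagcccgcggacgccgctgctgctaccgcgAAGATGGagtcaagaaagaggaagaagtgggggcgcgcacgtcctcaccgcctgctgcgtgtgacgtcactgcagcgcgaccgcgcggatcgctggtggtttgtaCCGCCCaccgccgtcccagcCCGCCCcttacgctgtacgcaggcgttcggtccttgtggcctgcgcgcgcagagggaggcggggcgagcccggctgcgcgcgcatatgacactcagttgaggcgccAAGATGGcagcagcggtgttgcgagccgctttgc
Mrps18b: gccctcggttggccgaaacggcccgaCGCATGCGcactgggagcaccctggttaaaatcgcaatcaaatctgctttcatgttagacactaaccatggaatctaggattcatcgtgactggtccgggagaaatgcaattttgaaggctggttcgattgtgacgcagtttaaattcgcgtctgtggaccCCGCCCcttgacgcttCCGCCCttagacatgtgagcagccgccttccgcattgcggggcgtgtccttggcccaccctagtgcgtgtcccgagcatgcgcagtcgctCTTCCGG
Mrpl33: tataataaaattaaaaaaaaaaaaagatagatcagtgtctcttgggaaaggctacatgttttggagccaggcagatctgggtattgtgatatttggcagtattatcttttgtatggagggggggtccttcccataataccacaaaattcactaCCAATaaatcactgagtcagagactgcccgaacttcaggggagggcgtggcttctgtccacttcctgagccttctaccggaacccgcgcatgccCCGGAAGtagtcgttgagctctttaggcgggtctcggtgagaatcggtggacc

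The Mrpl12 window held no match to any of the 6 motifs. In the Mrps27 window the ETS letters (as CTTCCGG, the other strand) lie ahead of the YY1 letters. The Mrpl36 window holds CCAAT, the E-box and the YY1 letters (as CCATCTT). Mrpl49 has the YY1 letters near both ends of its window, with GC boxes (as CCGCCC) between them. Mrps18b has the NRF1 letters near the start of its window, then GC boxes, and ends on the ETS letters. Mrpl33 holds CCAAT and the ETS letters. The RefSeq starts of Mrpl36 and Mrpl33 lie 2496 and 17016 bases from the start of the GENCODE gene, so these windows belong to an inner start of the annotated gene. That of Mrps18b lies 51 bases ahead of the GENCODE start, so its window ends before the annotated gene.

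Of the 78 members, 69 matched a promoter entry. The ETS letters were in 26 of the 69 windows, or 37.7%, against 8.9% of all 32851 promoters and 22.8% of the promoters of 8045 other tested protein-coding genes. The NRF1 letters were in 7 of the 69, or 10.1%, against 1.9% and 4.8%, and the YY1 letters in 13, or 18.8%, against 6.3% and 9.0%. GC boxes were in 34, or 49.3%, between the 35.7% of all promoters and the 69.5% of the other tested genes. CCAAT was in 27, or 39.1%, against 37.4% and 43.6%, and the E-box in 5, or 7.2%, against 7.2% and 12.3%. The YY1 letters contain ATG and occur around translation starts, and a GC-rich window favours several of these motifs by composition: the median GC content was 58.0% for members, 52.7% for all promoters and 60.7% for the other tested genes. A match describes the letters and is not a binding site.

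Over the 12 libraries the members differed 31.5-fold in mean level. The highest were Mrpl24 at 92.3 FPKM, Mrps21 at 84.1, Mrps18b at 69.6, Mrpl42 at 67.4, Mrpl23 at 54.9, Mrpl30 at 47.7, Mrpl52 at 45.5 and Mrpl37 at 42.5 FPKM. The lowest were Mrps25 at 2.93 FPKM, Mrpl57 at 3.34, Mrps26 at 3.60, Mrps35 at 5.15 and Mrpl35 at 5.6 FPKM. This order goes partly with the length by which each gene was scaled. That length ran from 418 to 7300 bases, exceeded 2000 bases in 25 of the 77 members above the filter, and did so in 11 of the 12 lowest. Across the 77 genes, level and length correlated at Pearson's r = -0.67 and Spearman's rho = -0.63, a description across genes that share libraries. Mrps17 averaged 12.9 FPKM with the 5061 bases used and would be at 78.6 FPKM on its principal transcript of 832 bases. Ratios of FPKM within a gene do not depend on this length. The log2 changes given below do, because 1 FPKM was added to each value first, which shrinks the change of low genes. Mrps25, scaled by 6073 bases, had WT means of 1.57 FPKM at 1 h and 4.19 FPKM at 6 h. On that scale its change was 1.02, or 2.03-fold.

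Mrpl24, a large-subunit protein of bacterial descent and the most abundant member mRNA, had 67.0, 68.4 and 67.0 FPKM in WT at 1 h and 68.4, 65.3 and 66.7 FPKM in KO at 1 h. At 6 h it had 119, 127 and 115 FPKM in WT and 112, 119 and 113 FPKM in KO. Each 6 h library lay above each 1 h library, and the genotypes overlapped at 6 h and at 1 h. Mrps25, a small-subunit protein and the lowest tested member, went from 1.77, 1.68 and 1.27 FPKM to 4.24, 4.04 and 4.29 FPKM in WT, and from 1.49, 1.51 and 1.71 FPKM to 4.33, 4.58 and 4.27 FPKM in KO. The same order of times therefore held at both ends of the range of levels.

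Mrpl53 was listed at 0 FPKM in all 12 libraries and was not tested. Of its exon bases, 88.0% overlap Gm42688 on the same strand. The other members of the set that overlap another gene on their own strand are Mrps34 (37.0% of exon bases, with Nme3), Mrps18c (23.2%, with Gm43511), Mrps6 (19.9%), Mrps24 (15.4%, with Urgcp), Mrpl3 (3.7%), Mrpl33 (3.6%) and Mrpl51 (2.2%). Values of these genes are uncertain to that extent. Processed pseudogenes of the family were left out by the rule, and the 5 in the table averaged 0 to 0.286 FPKM.

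**Figure D1:**
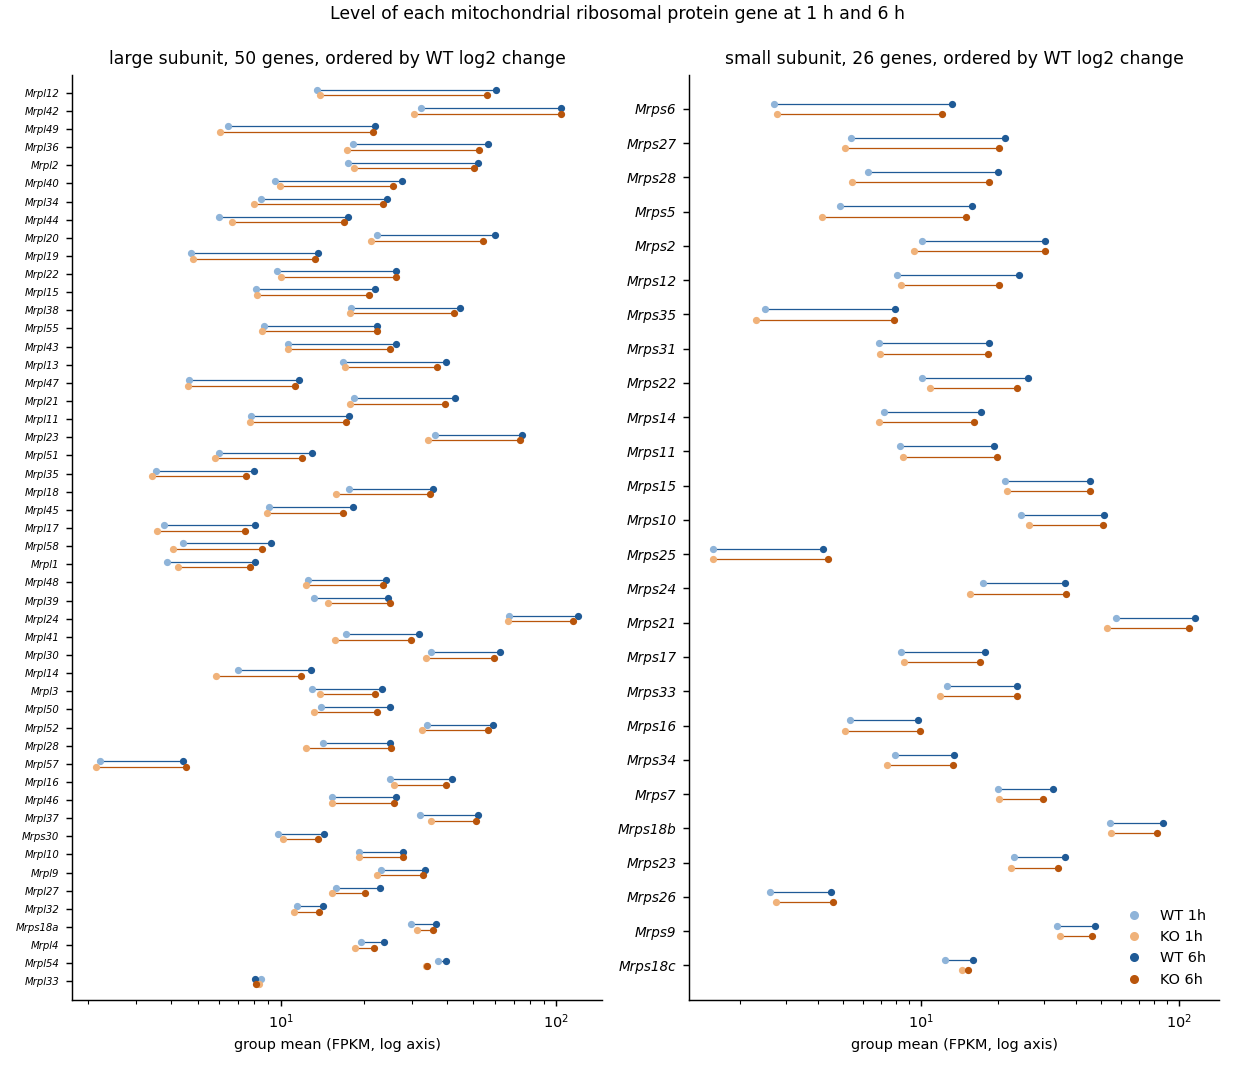
Mean FPKM of tested members on a log axis, large-subunit genes on the left and small-subunit genes on the right, ordered by the WT change. Pale points are 1 h, dark points 6 h, blue WT and orange KO, 3 libraries per point. Mrps36, counted apart, is not drawn. The lines run to the right for nearly all members, from the top, Mrpl12 and Mrps6, down to Mrpl54 and Mrpl33, whose 1 h and 6 h points nearly coincide.

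The question of the first comparison was how these genes change between 1 h and 6 h of receptor engagement. In WT cells 75 of the 77 tested members rose and 0 fell, against 49.5% of all 11841 tested genes called higher and 29.2% called lower by limma at an adjusted p under 0.05. The median log2 change of the members, on the scale of log2(FPKM + 1) used for all log2 values here, was 0.99, against 0.212 for all tested genes. In 38 of the 77 members the rise was at least 2-fold on this scale, against 15.1% of all tested genes. In KO cells 74 of 77 rose and 0 fell, with 50.6% of all tested genes called higher and 27.9% lower, and the median was 0.941 against 0.218. There 37 members rose at least 2-fold, against 15.3% of all tested genes. A rise of at least 1.5-fold was called in 66 members in WT, against 31.0% of all tested genes, and in 63 in KO, against 31.3%. The same 74 genes rose in both genotypes. In WT the 6 h libraries lay wholly above the 1 h libraries in 75 members, and in KO in 74.

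Summed over the set, the members held 1133 to 1227 FPKM in WT and 1125 to 1200 FPKM in KO at 1 h, and 2295 to 2596 FPKM and 2219 to 2366 FPKM at 6 h. As a share of all FPKM in a library this was 0.231% to 0.246% at 1 h and 0.432% to 0.485% at 6 h. The spread of levels between members narrowed, from an SD of log2 FPKM of 1.13 to 1.18 at 1 h to 1.03 to 1.05 at 6 h. In RNA from a whole population, more RNA per cell and more cells of a type cannot be told apart. From 1 h to 6 h 10 of 12 B cell markers fell in both genotypes, and 8 of 10 macrophage markers in WT and 9 of 10 in KO. Of 9 tested erythroid markers, 3 were called lower in WT and 1 in KO, and all 9 were lower by estimate in each. The part of a changing cell mix in the rise of the members was not tested.

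Mrpl12 rose most on the log2(FPKM + 1) scale. It is a protein of the stalk that contacts translation factors, and is also reported to bind the mitochondrial RNA polymerase. The gene (ENSMUSG00000039640, chr11:120484613-120489065, plus strand) had 15.7, 14.6 and 10.6 FPKM in WT and 15.7, 11.6 and 14.4 FPKM in KO at 1 h. At 6 h it had 56.8, 67.3 and 56.5 FPKM in WT and 57.8, 56.4 and 53.6 FPKM in KO. No 6 h library came near a 1 h library, and WT and KO overlapped at both times. The log2 change was 2.08 ± 0.14 (SE from limma, adjusted p = 1.06e-07) in WT and 1.94 ± 0.14 (adjusted p = 1.83e-07) in KO. By the ratio of mean FPKM, however, Mrps6 rose more than Mrpl12. Mrps6 went from 2.71 to 13.2 FPKM in WT and from 2.77 to 12.1 FPKM in KO. The means of Mrpl12 went from 13.6 to 60.2 FPKM and from 13.9 to 55.9 FPKM. The promoter window of Mrpl12 is the one above with no motif match.

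Mrps27, a small-subunit protein found only in mitochondria and built of pentatricopeptide repeats, lies at chr13:99344786-99415562 on the plus strand. It had 5.08, 5.59 and 5.41 FPKM in WT and 5.27, 4.89 and 5.04 FPKM in KO at 1 h, and 21.9, 23.2 and 18.7 FPKM in WT and 21.4, 20 and 19.1 FPKM in KO at 6 h. The libraries of a time lay close together, so the rise of 1.80 ± 0.07 in each genotype carried a small error (adjusted p = 3.39e-09 in WT and 3.5e-09 in KO, limma). Mrps6, a small-subunit protein of bacterial descent, had 2.24, 2.58 and 3.31 FPKM in WT and 3.08, 1.93 and 3.32 FPKM in KO at 1 h. At 6 h it had 13.4, 15.4 and 10.8 FPKM in WT and 13.1, 12.9 and 10.2 FPKM in KO. Its low counts at 1 h, down to 33 fragments, go with a larger error: the log2 change was 1.93 ± 0.17 in WT and 1.80 ± 0.17 in KO.

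Mrpl42, found only in mitochondria, was among the more abundant members and tripled. It had 33.0, 33.7 and 29.9 FPKM in WT and 31.4, 26.7 and 33.2 FPKM in KO at 1 h. At 6 h the values were 99.5, 102 and 109 FPKM in WT and 106, 107 and 97.2 FPKM in KO, a log2 change of 1.66 ± 0.08 and 1.74 ± 0.08. Mrpl49, another large-subunit protein found only in mitochondria (chr19:6053622-6057785, minus strand), had 5.52 to 6.92 FPKM over the 6 libraries at 1 h and 20.4 to 23.0 FPKM over the 6 at 6 h. Its log2 change was 1.63 ± 0.07 in WT (adjusted p = 5.51e-09, limma) and 1.70 ± 0.07 in KO (adjusted p = 4.32e-09, limma). Mrpl36, a short protein of bacterial descent, had 16.2 to 19.9 FPKM at 1 h and 50.4 to 63.0 FPKM at 6 h, and rose by 1.58 ± 0.08 and 1.53. Among the other strong risers of the small subunit were Mrps28 at 1.53 in WT and 1.60 in KO and Mrps5 at 1.52 and 1.64. In none of these genes did a 1 h library reach a 6 h library.

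**Figure D2:**
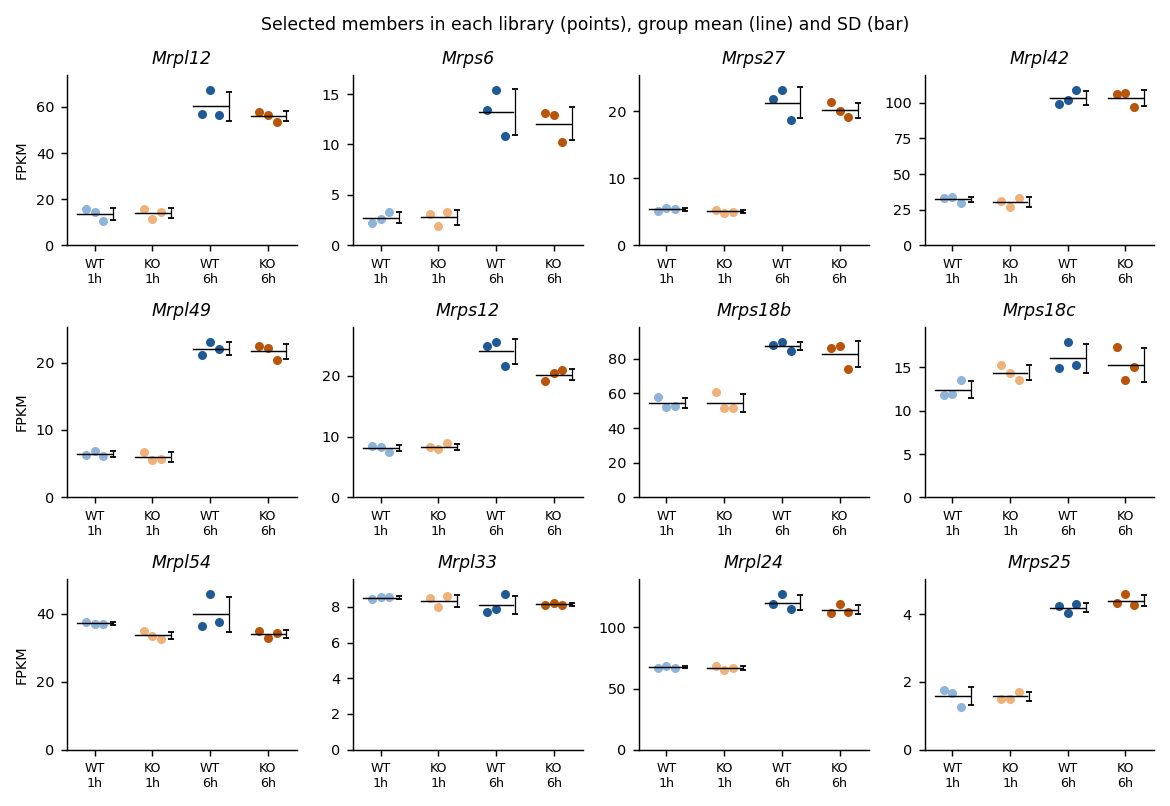
FPKM in each library for 12 selected members, with the group mean as a line and the SD as a bar, 3 libraries per group and axes starting at 0. Mrpl12, Mrps6, Mrps27, Mrpl42 and Mrpl49 are far higher at 6 h than at 1 h in both genotypes, Mrps12 lies lower in KO than in WT at 6 h, and Mrpl33 stays between 7.71 and 8.7 FPKM in all 12 libraries.

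By subunit, 48 of 50 large-subunit members rose in each genotype, with medians of 0.92 in WT and 0.918 in KO and 21 of them at least 2-fold in each. Of the 26 small-subunit members, 26 rose in WT and 25 in KO, with medians of 1.031 and 1.056 and 16 and 15 at least 2-fold. The summed level of the large subunit went from 756 to 826 FPKM at 1 h to 1480 to 1740 FPKM at 6 h. That of the small subunit went from 358 to 388 FPKM to 695 to 808 FPKM. Members of bacterial descent had medians of 1.011 in WT and 1.056 in KO, with 46 and 45 of 47 called higher. Those found only in mitochondria had medians of 0.882 and 0.873, with 28 of 29 called higher in each genotype. The difference between these classes was not tested.

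Members with a known role beyond ribosome structure rose with the rest. Mrps36, of the 2-oxoglutarate dehydrogenase complex, had 9.63 to 13.6 FPKM at 1 h and 39.6 to 46.6 FPKM at 6 h, and rose by 1.72 in both genotypes. Mrpl44, which has the fold of an RNase III enzyme, rose by 1.4 in WT and 1.23 in KO. Mrpl45, which holds the ribosome at the inner membrane, rose by 0.93 and 0.85. Mrpl58, a peptidyl-tRNA hydrolase that frees stalled ribosomes, rose by 0.92 and 0.91, and Mrpl41 by 0.83 and 0.87.

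The Mrps18 paralogs, related proteins that occupy different places in the ribosome, moved by unequal amounts. Mrps18b rose from 57.6, 52.3 and 52.7 FPKM to 88.0, 89.4 and 84.6 FPKM in WT, and from 60.7, 51.5 and 51.3 FPKM to 86.0, 87.5 and 74.1 FPKM in KO, log2 changes of 0.68 ± 0.08 and 0.59. Mrps18a went from 28.7, 29.5 and 30.8 FPKM to 34.1, 41.8 and 34.3 FPKM in WT and from 30.1, 31.5 and 32.3 FPKM to 35.1, 36.3 and 35.6 FPKM in KO. Its rise was small, 0.29 in WT (adjusted p = 0.00246, limma) and 0.18 in KO (adjusted p = 0.0307, limma). Mrps18c went from 11.8, 11.9 and 13.6 FPKM to 14.9, 17.9 and 15.3 FPKM in WT, a rise of 0.34 (adjusted p = 0.00635, limma). In KO it went from 15.3, 14.3 and 13.6 FPKM to 17.3, 13.5 and 15 FPKM, overlapping groups with a change of 0.07 (adjusted p = 0.488, limma). The difference between the genotypes in that change, -0.27, did not pass (adjusted p = 1.0, limma).

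Mrpl33 and Mrpl54 did not rise in either genotype. Mrpl33, a large-subunit protein of bacterial descent (ENSMUSG00000106918, chr5:31596935-31664384, plus strand), had 8.45, 8.56 and 8.56 FPKM at 1 h and 7.71, 7.91 and 8.70 FPKM at 6 h in WT. In KO it had 8.51, 7.97 and 8.59 FPKM at 1 h and 8.11, 8.22 and 8.09 FPKM at 6 h. The groups overlapped, and the log2 change was -0.07 ± 0.05 in WT (adjusted p = 0.233, limma) and -0.03 ± 0.05 in KO (adjusted p = 0.544, limma). This gene was scaled by 2045 bases, against 478 bases for its principal transcript.

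Mrpl54, a large-subunit protein found only in mitochondria, had 37.6, 36.9 and 37.1 FPKM at 1 h and 36.4, 45.7 and 37.5 FPKM at 6 h in WT. In KO it had 34.8, 33.5 and 32.6 FPKM at 1 h and 34.9, 32.8 and 34.4 FPKM at 6 h. A single WT library at 6 h stood above the rest, and the changes of 0.09 ± 0.07 (adjusted p = 0.26, limma) and 0.02 (adjusted p = 0.833, limma) did not pass. The smallest rises that passed in WT were those of Mrpl4 at 0.27, Mrps18a at 0.29 and Mrpl32 at 0.29.

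The size of these changes depends on the scaling, since the median of all tested genes was itself 0.212 higher at 6 h in WT and 0.218 higher in KO. When each library was rescaled by its median ratio to the other libraries, with factors of 0.9019 to 0.927 at 1 h and 1.096 to 1.104 at 6 h, the all-gene medians became -0.021 and -0.027. On that scale 71 members were called higher and 1 lower in WT, with a median of 0.751, against 38.5% of the 11851 genes then tested called higher and 39.4% lower. In KO 69 members were higher and 2 lower, with a median of 0.695, against 38.7% and 38.6%. Mrpl33 was called lower in both, at -0.30 in WT (adjusted p = 0.00013, limma) and -0.28 in KO (adjusted p = 0.000212, limma). Mrpl54 was called lower in KO, at -0.25 (adjusted p = 0.00823, limma), and was at -0.17 in WT (adjusted p = 0.0588, limma). The rise of Mrps18a was then 0.04 in WT and -0.09 in KO, that of Mrpl4 0.02 and -0.05, and that of Mrps18c 0.10 and -0.19, and none of these passed. The direction of the weakest responders thus depends on the scale, while that of most members does not.

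**Figure D3:**
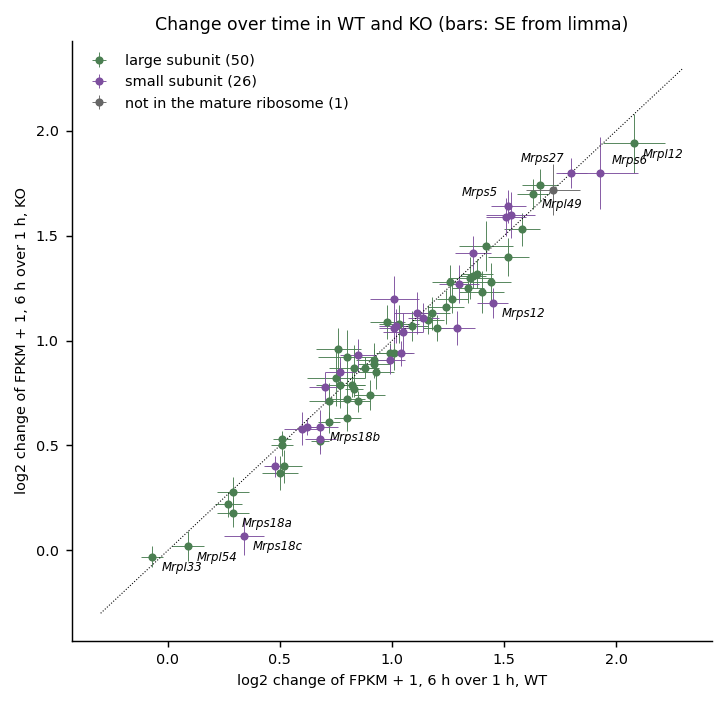
Log2 change of FPKM + 1 from 1 h to 6 h in WT (horizontal) and KO (vertical) for the 77 tested members, with SE from limma as bars; green is the large subunit, purple the small subunit, grey Mrps36, and the dotted line marks equal change. The points run along the line from Mrpl33 near 0 to Mrpl12 near 2, with Mrps12 and Mrps18c below the line.

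The changes over time in WT and KO lay close together. Across the 77 members the WT and KO changes, which share no library, correlated at r = 0.98 and rho = 0.97, a description across genes. The KO rise was below the WT rise in 52 members and above it in 25. Among all tested genes the KO rise was below in 5154 and above in 6687. Over 21 other settings between 17 and 40 members had the larger rise in KO. The median difference was -0.035, and it was 0.012 without the second WT library at 6 h. The changes differed by no more than 0.2 in 74 members. On the log2(FPKM + 1) scale, a member's rise was weakly related to its starting level taken from the other genotype. For the WT rise against the KO level at 1 h, r was -0.29 and rho -0.33. For the reverse, r was -0.30 and rho -0.34. This scale understates changes of low members, and the relation on plain FPKM ratios was not computed. The difference between genotypes in the change over time was called in 0 of 77 members by limma, against 0.0253% of all tested genes. An unadjusted p under 0.05 was reached by 2 of the 77, against 4.54% of all tested genes, and limma-voom on recovered fragments called 0 members and 0 of all 11839 genes it tested.

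The study asks what the loss of Fcmr does to signalling in these cells, and the second comparison set KO against WT at each time. None of the 77 members passed limma's threshold at 1 h, where 0.524% of all tested genes did, and none at 6 h, where 0.228% did. An unadjusted p under 0.05 was reached by 3 members at 1 h, against 11.3% of all tested genes, and by 2 at 6 h, against 7.55%. Both are smaller shares than among all genes. At both times limma-voom called 0 members, with 18 genes higher and 85 lower of 11839 at 1 h and 17 higher and 11 lower at 6 h. The estimates were close to 0, from -0.23 to 0.20 at 1 h and from -0.24 to 0.06 at 6 h, with medians of -0.023 and -0.055. The intervals of 2 SE around them reached from -0.49 to 0.39 at 1 h and from -0.46 to 0.29 at 6 h, so all 77 lay within 0.5 of equality on the log2 scale at both times.

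At 6 h, 12 of 77 members were higher in KO by estimate, against 6001 of 11841 tested genes, and at 1 h 32 of 77 against 5376. The count at 6 h rests on single libraries. It was 32 of 77, with a median of -0.008, without the second WT library at 6 h, 27 of 77, with a median of -0.022, without the third KO library, and 4 of 77 without the first WT library. Cytosolic ribosomal protein genes were also mostly lower in KO by estimate at 6 h, with 2 of 86 higher and a median of -0.070. Over 22 other settings, which varied scaling, filter and model as well as libraries, between 0 and 51 of these genes were higher. Their medians ran from -0.145 to 0.007. For the members the same settings gave 4 to 32 higher, with medians from -0.08 to -0.008, so most stayed lower in KO. The neutrophil marker sums were above every KO library in the first and second WT libraries at both times and within the KO range in the third, and 5 of 10 macrophage markers were called lower in KO at 1 h and 0 at 6 h. All 9 tested erythroid markers were lower in KO by estimate at both times, with medians of -0.603 at 1 h and -0.518 at 6 h, and 0 were called. The part of these other cell types in these small differences was not tested.

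Mrps12, a small-subunit protein at the decoding centre, had the smallest p at 6 h. It had 8.49, 8.34 and 7.55 FPKM in WT and 8.28, 7.93 and 8.90 FPKM in KO at 1 h, overlapping groups. At 6 h it had 24.9, 25.5 and 21.6 FPKM in WT and 19.2, 20.4 and 20.9 FPKM in KO, with every KO library below every WT library. The log2 difference at 6 h was -0.24 ± 0.07 (adjusted p = 0.365, limma), with an interval of 2 SE from -0.38 to -0.10. It rose by 1.45 ± 0.07 in WT and 1.18 ± 0.07 in KO. The rises differed by -0.28 ± 0.10, which did not pass (adjusted p = 1.0, limma).

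Mrpl54, already described for its flat course, was lower in every KO library than in every WT library at both times, by estimates of -0.14 at 1 h and -0.22 ± 0.07 at 6 h (adjusted p = 0.436 at 6 h, limma). Mrpl37, a large-subunit protein found only in mitochondria, had 31.1, 31.9 and 32.9 FPKM in WT and 34.0, 37.1 and 34.7 FPKM in KO at 1 h, a difference of 0.14 ± 0.04 (adjusted p = 0.245, limma). Its groups overlapped at 6 h, with 49.7, 53.2 and 52.7 FPKM in WT and 51.7, 51.8 and 49.8 FPKM in KO. Mrpl39, another large-subunit protein found only in mitochondria, had 13.3, 12.7 and 13.6 FPKM in WT and 15.2, 13.8 and 15.5 FPKM in KO at 1 h, a difference of 0.16 (adjusted p = 0.269, limma).

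Complete separation of the groups was seen in 6 members at 1 h, against 14.8% of all tested genes, and in 7 at 6 h, against 15.1%. At 1 h Mrpl37, Mrpl39 and Mrps18c were higher in every KO library, and Mrps21, Mrpl54 and Mrpl9 lower. At 6 h Mrpl30, Mrpl54, Mrpl4, Mrpl50, Mrps22, Mrps12 and Mrps17 were lower in every KO library and no member was higher. Both counts are below the share seen in all tested genes.

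**Figure D4:**
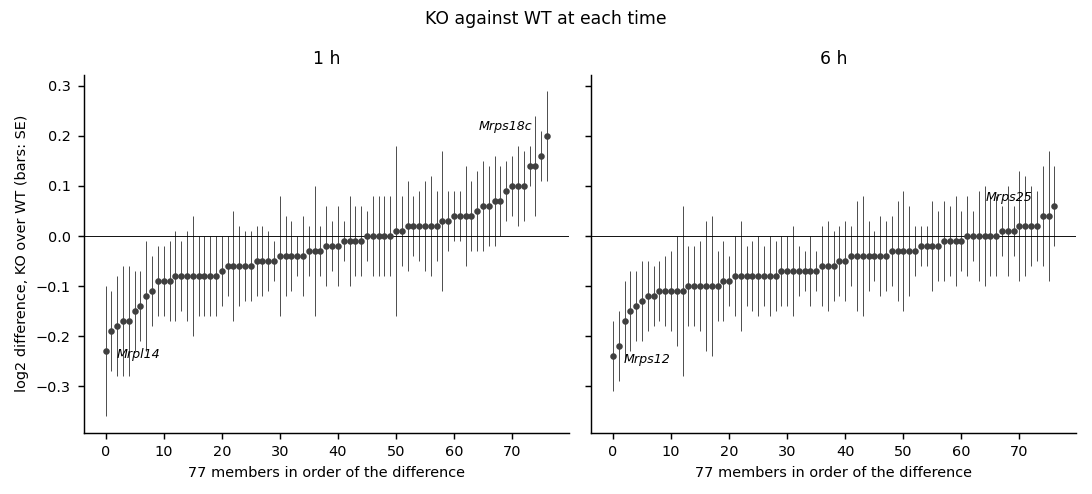
Log2 difference between KO and WT for the 77 tested members at 1 h (left) and 6 h (right), in order of the difference, with SE from limma as bars. The differences run from -0.23 to 0.20 at 1 h and from -0.24 to 0.06 at 6 h, and more of them lie below 0 at 6 h.

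Many of these genes sit back to back with another gene. A protein-coding gene starts on the opposite strand within 1000 bases of the start of 33 of the 78 members, or 42.3%, against 10.8% of 21974 protein-coding genes. The latter include genes not expressed in these cells, and the share among tested genes was not computed. Mrps11 and Mrpl46 are such neighbours of each other, with starts that overlap by 412 bases, and rose by 1.11 and 0.72 in WT. Of the 31 neighbours outside the set 27 were tested, and 20 rose and 5 fell in WT, with a median of 0.643, while 20 rose and 4 fell in KO, with a median of 0.61. Among all tested genes 49.5% were called higher and 29.2% lower in WT, and 50.6% and 27.9% in KO. In 19 of the 27 pairs tested both genes rose in each genotype. The member was called higher in 26 of the 27 pairs in WT and in 25 in KO, so this count follows the neighbours. In WT the member rose and the neighbour fell in 5 pairs, and in KO in 4.

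Mrpl49, whose promoter window is printed above, lies 59 bases from Fau, which encodes a ubiquitin-like protein fused to a protein of the cytosolic ribosome. Mrpl49 more than tripled, while Fau went from 670, 734 and 658 FPKM to 509, 596 and 438 FPKM in WT and from 688, 654 and 651 FPKM to 504, 487 and 484 FPKM in KO. Fau fell by 0.43 ± 0.09 in WT (adjusted p = 0.00136, limma) and by 0.43 in KO (adjusted p = 0.00125, limma). Mrps18b lies 45 bases from Ppp1r10, a nuclear regulator of protein phosphatase 1, which went from 45.3, 42.4 and 48.0 FPKM to 23.8, 24.5 and 24.4 FPKM in WT. In KO Ppp1r10 went from 43.3, 43.8 and 43.0 FPKM to 23.0, 23.1 and 23.1 FPKM. It fell by 0.87 ± 0.04 in WT (adjusted p = 9.78e-09, limma) and by 0.88 in KO. The other pairs with opposite calls were Mrpl57 with Ska3, Mrpl2 with Klc4 and, in WT alone by its call, Mrpl51 with Ncapd2, whose neighbour was at -0.28 in WT (adjusted p = 0.0483, limma) and -0.11 in KO (adjusted p = 0.392, limma).

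Mrps27 lies 81 bases from Ptcd2, a pentatricopeptide protein of mitochondrial RNA processing, and these genes rose alike: Ptcd2 by 1.52 ± 0.07 in WT and 1.78 in KO. Mrps12 lies 172 bases from Sars2, the mitochondrial seryl-tRNA synthetase, which rose by 0.71 in WT and 0.61 in KO. Mrpl54, which did not rise, lies 26 bases from Apba3, which rose by 1.18 (adjusted p = 6.78e-08, limma) in WT and 0.98 in KO. A short distance between starts therefore went with like changes in some pairs and with unlike or opposite changes in others. Exon bases of 33 members overlap a gene on either strand, with the largest shares in Mrpl53, Mrps34 (77.8%), Mrps25 (69.8%), Mrpl19 (36%), Mrpl43 (33.4%), Mrps18b (30.5%) and Mrpl24 (26.3%). Whether the authors' counting used strand is not given in the sources used here.

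Set beside the promoter letters, the 25 tested members with the ETS motif had a median WT change of 0.882 and the 43 without it 1.018. The 7 with the NRF1 letters had 0.679 and the others 1.008, and the 5 with an E-box had 1.379 and the others 0.979. Members with and without a GC box had 0.999 and 0.924, with and without the YY1 letters 1.009 and 0.932, and with and without CCAAT 0.916 and 0.999. These medians are descriptions of small sets, with no test. Rising members occurred with each motif and without it, and Mrpl12, with the largest log2 change, had none of the 6.

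Other genes of mitochondrial translation rose as well. Of the mitoribosome proteins with other names, all 5 tested rose in both genotypes, with medians of 1.015 in WT and 1.047 in KO. These were Dap3 (0.58 and 0.52), Aurkaip1 (1.00 and 0.91), Chchd1 (1.02 and 1.05), Ptcd3 (1.1 and 1.07) and Gadd45gip1 (1.30 and 1.25). Of 15 translation factors 15 rose in each genotype, with medians of 0.897 and 1.044. Tsfm, the exchange factor for the elongation factor Tufm, rose by 2.11 (adjusted p = 1.94e-09, limma) and 2.05, and Tufm itself by 1.75 and 1.66. Of 30 genes of ribosome assembly and rRNA modification 26 rose and 1 fell in each genotype, with medians of 0.783 and 0.760. Trub2, a pseudouridine synthase of mitochondrial RNA, went from 12.7 to 14.5 FPKM at 1 h to 67.0 to 69.0 FPKM at 6 h in WT, a rise of 2.21 (adjusted p = 2.65e-10, limma). Trmt2b, an RNA methyltransferase, was the gene that fell, at -0.33 in WT and -0.18 in KO.

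Import and RNA handling followed the same course. Of 30 protein import genes 28 rose and 1 fell in each genotype, with medians of 0.881 and 0.820. The outer membrane channel gene Tomm40 rose by 1.91 in WT and the inner membrane translocase gene Timm50 by 1.86, while the inner membrane peptidase gene Immp2l fell, at -0.76 in WT and -0.91 in KO. Of 23 genes of mitochondrial transcription and RNA handling 20 rose in each genotype, with medians of 0.928 and 0.839. Lrpprc, which stabilises mitochondrial mRNAs, rose by 1.57 in WT (adjusted p = 1.43e-10, limma) and 1.65 in KO. Tfam, which packages mitochondrial DNA and starts its transcription, fell by 0.16 in WT (adjusted p = 0.0116, limma) and was at -0.10 in KO (adjusted p = 0.0927, limma).

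The products of mitochondrial DNA did not share the rise. The rRNAs of the mitochondrial ribosome both fell: mt-Rnr1 was at -0.41 in WT and -0.50 in KO, and mt-Rnr2 at -0.39 and -0.28. Of 11 tested protein-coding genes of mitochondrial DNA, 1 rose and 5 fell in WT, with a median of -0.189, and 0 rose and 2 fell in KO, with a median of -0.125. The cytochrome oxidase gene mt-Co1 fell from a mean of 9150 ± 158 to 7220 ± 482 FPKM in WT (SD, n = 3), a log2 change of -0.34, and was at -0.25 in KO. The gene called higher in WT, mt-Nd6, had 9.69, 30.5 and 13.2 FPKM at 6 h against 8.80 to 9.66 FPKM at 1 h, with an adjusted p of 0.0492 (limma). Without the second WT library at 6 h, 0 of the 11 genes rose and 3 fell in WT. With median-ratio scaling 0 rose and 6 fell in each genotype. The libraries were made from poly-A RNA, which takes up mitochondrial RNAs only in part.

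Known regulators of mitochondrial growth moved in both directions. Of 11 tested 8 rose and 2 fell in WT, with a median of 0.467, and 8 rose and 3 fell in KO, with a median of 0.448. Pprc1, a coactivator of the PGC-1 family, rose by 1.17 in WT and 1.23 in KO, from 224 to 289 FPKM over the 1 h libraries to 536 to 592 FPKM over the 6 h libraries. Myc, a growth regulator induced early after receptor engagement, fell by 1.60 in WT, from 548, 560 and 571 FPKM to 195, 186 and 172 FPKM, and by 1.5 in KO. Ppargc1a fell by 1.00 and 0.72 from a low level. Nrf1 rose by 0.57 in WT and 0.61 in KO, Gabpa by 0.67 and 0.65, and Yy1 by 0.47 and 0.45.

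Cytosolic ribosomal protein genes, the family most like the members, behaved differently. Of the 86 tested, 50 were called higher and 4 lower in WT, with a median of 0.276. In KO 48 were called higher and 3 lower, with a median of 0.255. The shares called higher, 58.1% in WT and 55.8% in KO, lay near the 49.5% and 50.6% of all tested genes. Among all tested genes 29.2% and 27.9% were called lower, a larger share than in this family. With median-ratio scaling this family had 20 higher and 16 lower in WT, with a median of 0.014, and 17 higher and 22 lower in KO, with a median of -0.024, so that its direction depends on the scale. Its summed level was 69738 to 76311 FPKM at 1 h and 78179 to 96279 FPKM at 6 h, where the summed level of the members about doubled. The largest rises among these genes, chosen by name, were those of Rps27l, a paralogue of Rps27, at 1.63 and of Rpl7l1, a relative of Rpl7, at 1.20 in WT. With median-ratio scaling the other lists kept most of their calls: 13 and 14 of 15 translation factors rose, 26 and 26 of 30 import genes, 22 and 21 of 30 assembly genes, and 18 and 18 of 23 genes of RNA handling, in WT and KO.

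**Figure D5:**
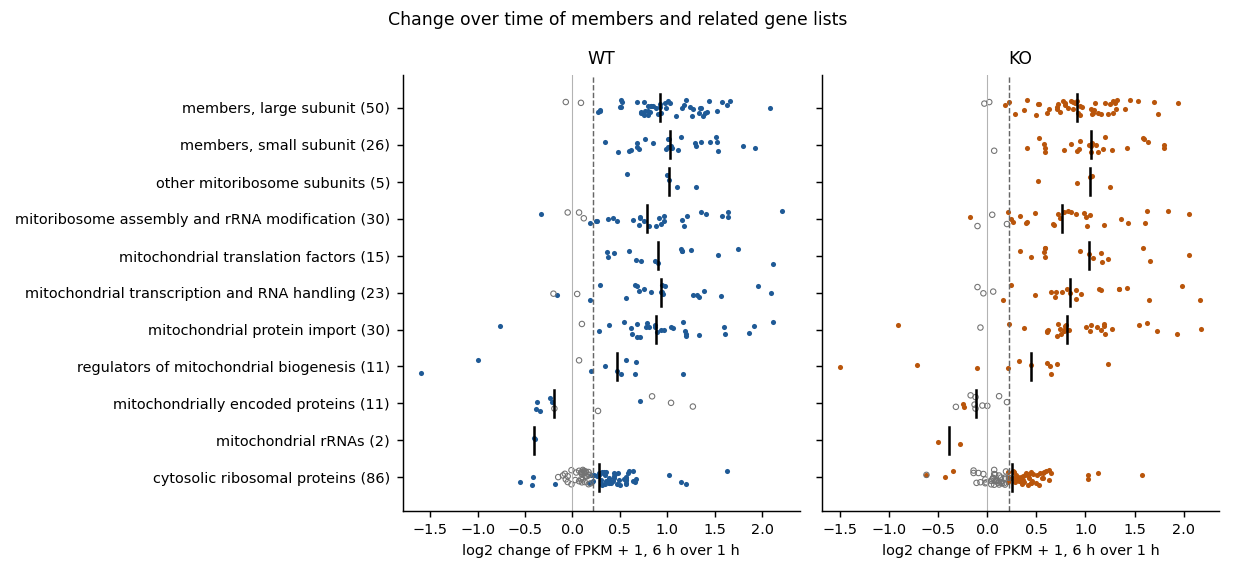
Log2 change of FPKM + 1 from 1 h to 6 h in WT (left) and KO (right). Each point is a tested gene of the large- or small-subunit members, without Mrps36, or of a related list. Filled points were called by limma and open points were not. Black bars are medians and the dashed line is the median of all tested genes (0.212 in WT, 0.218 in KO). Members and other mitochondrial translation lists lie mostly to the right of that line, the cytosolic ribosomal proteins around it, and the mitochondrially encoded genes mostly to its left.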

How the data were processed

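RNA was measured in 12 mouse splenic B cell libraries, made from poly-A RNA with a strand-marking kit per the labels' protocols. The deposited table holds FPKM, made by the authors with STAR, HTSeq and build mm10 per the submitters' processing notes, without versions; the gene lengths, annotation and strand setting are not given in the sources used here. Library totals were inferred first, from genes with a single annotated transcript. The most common product of FPKM and length among them was taken as a single fragment. With these totals, 99.1% of tested genes gave whole fragments on an annotated length (tolerance 0.001). All 12 columns were used. Symbols and positions came from GENCODE vM21.

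The test was limma 3.58.1 in R 4.3.3 on log2(FPKM + 1), two-sided, with 1 mean per group and a variance trend. P-values were adjusted by Benjamini and Hochberg over 11841 genes, those averaging 1 FPKM or more. Calls needed an adjusted p under 0.05. The log2(FPKM + 1) scale understates changes of low genes. The code was tested on simulated data. Tables were handled in Python 3.11.15 with pandas 2.3.3.

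Members and related lists were chosen with earlier results of these data known. Named members were up to 8 per direction with the largest called and separated change, or the 5 smallest p where none passed, the 8 highest and 5 lowest levels, members under the filter, Mrpl12, Mrpl41, Mrpl44, Mrpl45, Mrpl58, Mrps36 and the Mrps18 paralogs; lists gave up to 4 genes by p. Other genes and the divergent neighbours were named after their values were seen. Same-numbered libraries of a genotype deviated together across times (correlations 0.338 to 0.547 in WT, 0.365 to 0.476 in KO), so numbers pair the times; across genotypes they did not (-0.15 to 0.248).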

Additional observations from a re-analysis of the deposited data

How the results depend on the processing

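Under 22 other settings the members called higher over time numbered 71 to 75 in WT, with 0 to 1 lower, and 69 to 74 in KO, with 0 to 2 lower; their medians ran from 0.751 to 1.063 and from 0.695 to 1.071. The lowest of these came from median-ratio scaling and the highest from limma-voom. With the replicate number as a block, 75 and 74 members were called higher over time in WT and KO. For the difference between genotypes in that change 0 were called, so pairing the times changed no count of calls. For KO against WT at each time 0 were called. That block joins WT and KO libraries of a number, which did not deviate together, so it does not address pairing.

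Leaving out each library in turn gave 75 to 76 members called in WT, 73 to 74 in KO and 0 in the genotype comparisons. The called members were all higher at 6 h except Mrpl33, which was called lower in WT, at -0.11 (adjusted p = 0.0475, limma), without the third WT library at 6 h and made the count 76. The count of members called between KO and WT at 6 h became 1 without both WT libraries numbered 3, where Mrpl27 was at -0.29 (adjusted p = 0.0457, limma) and 20 genes were called higher and 44 lower of 11841. Estimates at 6 h that changed sign were near 0: Mrps11 (0.04), Mrps26 (0.02) and Mrpl57 (0.04) became -0.01, -0.02 and -0.03 without the first or the third WT library at 6 h or without both WT libraries numbered 3, and reached 0.16, 0.11 and 0.17 without the second. Mrpl39 (0.01) ranged from -0.01 without the first KO library at 6 h to 0.05 without the third. The cause was not tested.

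Depth limits the low members, such as Mrps6, and the intervals printed for the genotype comparisons show what 3 libraries a group leave uncertain. The absence of unstimulated libraries from the set used, the unknown gene lengths and the unknown strand setting limit levels and overlapping genes.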
